A study of Mus musculus with 12 samples.

Results

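Gene symbols that consist of Gm and a number are placeholders that mouse annotation gives to predicted gene models, most of which have no studied product. In the ORFtag screens analysed here, 78 such genes had at least 50 background insertions, out of 20409 genes counted and out of 1008 Gm genes. They were chosen on the symbol and this background count, as the deposited tables give it, and Gm5485 and Gm10324 were left out by name. The paper lists Gm5485 as a hit of its post-transcriptional screen and Gm10324 as a hit of its repressor screen. Both are therefore missing from the counts of called members below. The background is the sum of the unsorted libraries, so the background count of a member is a description of how it was chosen and not a finding. The counts of the members ran from 50 to 523 with a median of 136, and 35 members had under 100. Just inside the limit, Gm8773, Gm17374 and Gm3839 had 50 insertions each, and just outside it Gm11060, Gm12216 and Gm20481 had 49 each.

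ORFtag uses a retroviral cassette with a promoter, a selection gene, a tag and a splice donor. Where the cassette lands upstream of an exon in the right orientation, its transcript is spliced to that exon, and the cell makes the downstream protein fused to the tag near its N terminus. Many retroviral vectors integrate by preference near active promoters and enhancers. An insertion is assigned to the closest downstream acceptor, whichever gene it belongs to, so insertions at the promoter of another gene can be counted for a predicted model. C2H2 zinc-finger proteins with a KRAB domain are a large family of DNA-binding proteins in mammals, many of them in gene clusters that differ between species, and the KRAB domain is known for recruiting the corepressor Trim28.

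The 12 libraries came from 3 screens in mouse embryonic stem cells. The cells were a feeder-free diploid line derived from haploid HMSc2, and the activator and PTGR reporter lines were each grown from a clone. The tag of the activator and the repressor screen was the DNA-binding domain of TetR with a nuclear localization signal, and TetO sites lay beside a GFP reporter at a locus on chromosome 15. The activator reporter also held a puromycin resistance gene and had a minimal MYLPF promoter, and GFP-positive cells were sorted. The repressor reporter was active and GFP-negative cells were sorted. The PTGR screen, for regulators that act after transcription (post-transcriptional gene regulators), used λN as the tag, and the reporter mRNA, made from a randomly integrated construct, carried boxB sites. Cells of low GFP were sorted repeatedly, 4-hydroxytamoxifen was then used to remove the boxB sites through CreERT2, and the cells with higher GFP were kept in a last sort. Each screen had 2 sorted libraries and 2 unsorted libraries of transduced cells after G418 selection. A sorted library held between 14705 and 60980 insertions within 200 kb of an acceptor, and an unsorted library between 54088 and 233799. An insertion list gives positions without read or cell numbers, so a position counts once however many cells carried it.

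The splice acceptors of the members, where the tag would join the transcript, are shown first, since nearly all insertions of a member pointed to the same acceptor. For 45 of 78 members every unsorted insertion was assigned to 1 acceptor, and for 65 members at least 90% were. In the genome (GRCm38, the mm10 build of the deposited lists, RefSeq sequence) 77 of the 78 main acceptors were preceded by the AG dinucleotide that ends an intron, and that of Gm10800 by TT. The windows below hold 20 intron and 10 exon bases, 5′ to 3′ on the strand of the gene, with the AG in capitals. The 4 members with the most background insertions are shown to let the acceptors that collect them be compared.
Gm49450, chr15:98951682-98951711, minus strand: ttttttccctctttccacAGcgtgagtgca
Gm11034, chr8:72213540-72213569, minus strand: gagaagagagagaagagaAGcgaagagaag
Gm19345, chr7:19854922-19854951, plus strand: tgtctctgtctcgatctcAGcacctgccac
Gm10203, chr6:149130218-149130247, plus strand: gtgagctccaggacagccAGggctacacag
Of the 18 bases before the AG, where a polypyrimidine tract usually lies, 17 were C or T in Gm49450, 14 in Gm19345, 8 in Gm10203 and 0 in Gm11034, whose window is a purine repeat. The median over the 78 members was 14.

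The annotation of the members was mixed. In GENCODE vM21, 77 of the 78 were listed as protein-coding and Gm11100 as a processed transcript, while of the 49 that RefSeq lists under the same symbol 35 were protein-coding, 9 were long noncoding RNAs and 4 were pseudogenes. The longest annotated coding sequence of the 77 members that have one ran from 13 to 5808 residues with a median of 205, and in 30 members it was under 150 residues. Gm11034 (chr8:72213494-72213636, 143 bp, 30 residues) and Gm17617 (chr13:55132962-55133548, 13 residues) were among the smallest models. On the same strand, 14 members overlapped another protein-coding gene. These include models that span neighbouring genes, such as Gm49450 over the tubulin genes Tuba1a and Tuba1b, Gm20390 over the nucleoside diphosphate kinase genes Nme1 and Nme2, and Gm49804 over Rps10 and Nudt3. A further 11 overlapped a gene on the opposite strand only, and 53 overlapped neither. No position was assigned to more than 1 gene.

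Most background insertions of the members lay far from the gene. The median distance from insertion to acceptor was taken for each gene, and its median over the members was 45454.5 bp, against 44220 bp over the 88 genes with Rik symbols and 31545 bp over the 5087 genes of other symbols that also had at least 50 background insertions. In the median member 2.78% of insertions lay inside the gene, against 5.42% for Rik genes and 13.6% for the other symbols. Of all 12871 insertions of the members in the unsorted libraries, 63.4% lay in no protein-coding gene, 13.5% lay within 2 kb of the start of another gene and 4.97% within 2 kb of the member's own start. For the other symbols these shares were 53.7%, 8.60% and 8.998%. In 50 members more insertions lay near another gene's start than near their own. The highest shares of insertions within 2 kb of another start were 78.0% in Gm8773, 77.8% in Gm28040, 57.1% in Gm17266, 52.7% in Gm20547 and 49.7% in Gm525. These shares describe lists that differ in annotation and were not tested.

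**Figure D1:**
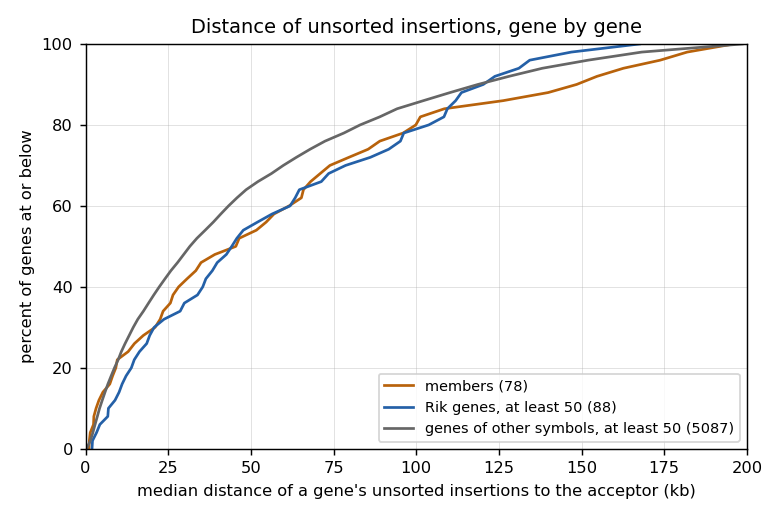
Percent of genes (y axis) whose median distance from unsorted insertions to the acceptor (x axis, kb) is at or below a value, for the 78 members, 88 Rik genes and 5087 genes of other symbols, all with at least 50 background insertions. The curves of members and Rik genes run to the right of the other symbols over most of their length, and 47.4% of members had a median over 50 kb against 35.6% of the other symbols.

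In the 12 members with the most background insertions, the highest unsorted rate was between 1.25 (Gm49450) and 2.20 (Gm33543) times the lowest. Rates are given as insertions per 10000 insertions of the library. In the 6 unsorted libraries, Gm49450 had a lowest rate of 4.67, a median of 4.95 and a highest of 5.85. For Gm11034 the same 3 values were 4.07, 4.68 and 6.37. For Gm19345 they were 3.90, 4.76 and 6.10, and for Gm10203 3.52, 4.28 and 5.22. These ranges overlap, so the order of the 4 genes is not settled by the libraries. For Gm17617 the values were 3.39, 4.44 and 5.18. For Gm867 they were 2.59, 3.37 and 4.92, and for Gm14226 2.77, 3.66 and 4.33. The remaining 5 of the 12 members with the highest background counts (Gm33543, Gm11634, Gm20390, Gm9903 and Gm17387) had medians between 3.03 and 3.47. In the sorted libraries none of these 12 passed the test for more insertions in any screen. Their log2 odds ratios of sorted over unsorted counts ran from -0.93 to 0.15 for activators and from -0.51 to 0.06 for PTGRs. For repressors they ran from -3.74 to -0.51. High unsorted counts, for which these 12 were picked, lower such ratios, so nothing is read from their sign or from the missing calls. Over the 76 members seen in each unsorted library, the ratio of the highest to the lowest rate had a median of 2.17, and it was highest in Gm14325 (15.4) and Gm45521 (14.1).

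Before the sorted libraries are compared, the libraries are not all separate sets of insertions. Of the positions of repressor sorted replicate 1, 18.8% were also found in replicate 2, and 27.5% of those of replicate 2 in replicate 1. In the activator screen these shares were 2.21% and 2.61%, and in the PTGR screen 0.648% and 0.675%. Sorted libraries also shared positions with unsorted libraries of their own screen, and at most 2.18% with any library of another screen. In the PTGR screen sorted replicate 1 shared 19.5% with unsorted replicate 1 and 0.397% with replicate 2, and sorted replicate 2 shared 6.98% with unsorted replicate 2 and 1.93% with replicate 1. In the activator screen sorted replicate 1 shared 5.17% with unsorted replicate 1 and 2.35% with replicate 2, and sorted replicate 2 shared 19.2% with unsorted replicate 2 and 1.39% with replicate 1. Libraries of the same number thus shared more in these screens, while in the repressor screen both sorted libraries shared more with unsorted replicate 2 (10.0% and 8.72%) than with replicate 1 (8.497% and 5.47%). By the methods, sorted cells were taken from the transduced population that also gave the unsorted cells. The results of the repressor screen are therefore given with and without the positions found in both sorted replicates.

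**Figure D2:**
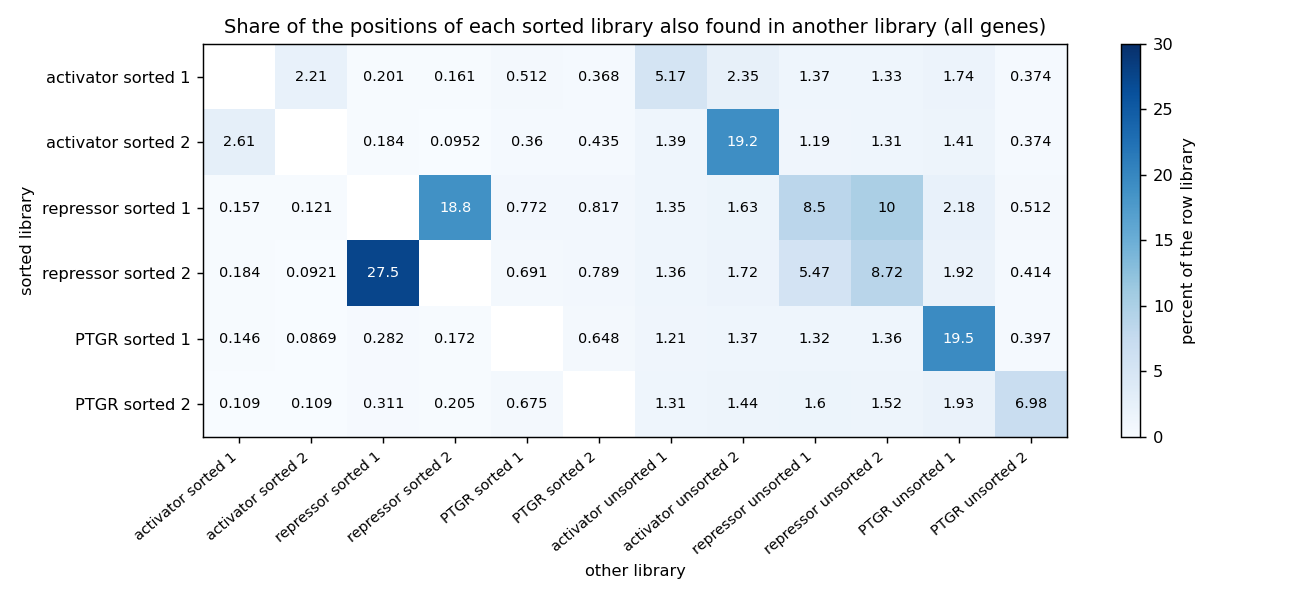
Percent of the positions of each sorted library (rows) that were also found in each other library (columns), over all genes. The cells of the repressor sorted replicates against each other hold 18.8 and 27.5, while those of the activator and PTGR sorted replicates hold at most 2.61.

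In the repressor screen 5 members had more insertions in GFP-negative cells than in the background: Gm35315, Gm10778, Gm14325, Gm6871 and Gm3604. The 2 sorted libraries were summed and set against the 6 unsorted libraries with Fisher's exact test, one-sided for more sorted insertions and run gene by gene. A gene was called if it had at least 3 sorted insertions, its log2 odds ratio was 1 or more and its Benjamini-Hochberg adjusted p over all genes tested was below 0.001. Errors of log2 odds ratios are standard errors from counting alone. Of 40 members tested 5 were called (12.5%), beside 8.18% of all 2346 genes tested. Since the rule for members fixed the background side of this contrast, nothing is read from that difference. All 5 carry placeholder symbols, and the longest annotated protein of each holds several matches of the C2H2 zinc-finger pattern described below. No search for a KRAB domain was made.

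Gm35315 (ENSMUSG00000109771, chr5:110076136-110094420, minus strand) had 216 and 212 insertions in the 2 repressor sorted libraries, 97.0 and 139 per 10000. Its unsorted insertions numbered 13 and 19 (activator), 64 and 71 (repressor) and 27 and 4 (PTGR), so that the highest unsorted rate was 4.01 per 10000. Every sorted library of the repressor screen was above every unsorted library, and the log2 odds ratio was 5.90 ± 0.12, with an adjusted p below the smallest number that could be written (0). In the other sorted libraries it had 1 and 0 insertions (activator) and 3 and 3 (PTGR).

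Gm10778 (ENSMUSG00000096856, chr10:81649059-81667361, plus strand) had 111 and 81 sorted insertions, 49.9 and 53.3 per 10000. Its unsorted rates lay between 0.228 and 1.61, and the log2 odds ratio was 6.13 ± 0.20 (adjusted p = 3.9e-211). In the activator sorted libraries it had 0 insertions, which allows up to 3 in each by counting error. Both repressor sorted libraries were above every unsorted library.

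Gm14325 (ENSMUSG00000095362, chr2:177831791-177840336, minus strand) had 106 and 68 sorted insertions, 47.6 and 44.7 per 10000. The unsorted rates lay between 0.0855 and 1.32, and the log2 odds ratio was 6.24 ± 0.21 (adjusted p = 4.2e-194). This value and that of Gm10778 differ by less than their standard errors.

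Gm6871 (ENSMUSG00000090744, chr7:41545674-41573662, minus strand) had 92 and 71 sorted insertions, 41.3 and 46.7 per 10000, with unsorted rates between 0.819 and 2.24 and a log2 odds ratio of 5.01 ± 0.17 (adjusted p = 1.5e-148). Gm3604 (ENSMUSG00000094942, chr13:62368328-62383177, minus strand) had 47 and 30 sorted insertions, 21.1 and 19.7 per 10000, with unsorted rates between 0.185 and 0.918 and a log2 odds ratio of 5.23 ± 0.25 (adjusted p = 1.2e-73). For both genes the groups did not overlap.

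**Figure D3:**
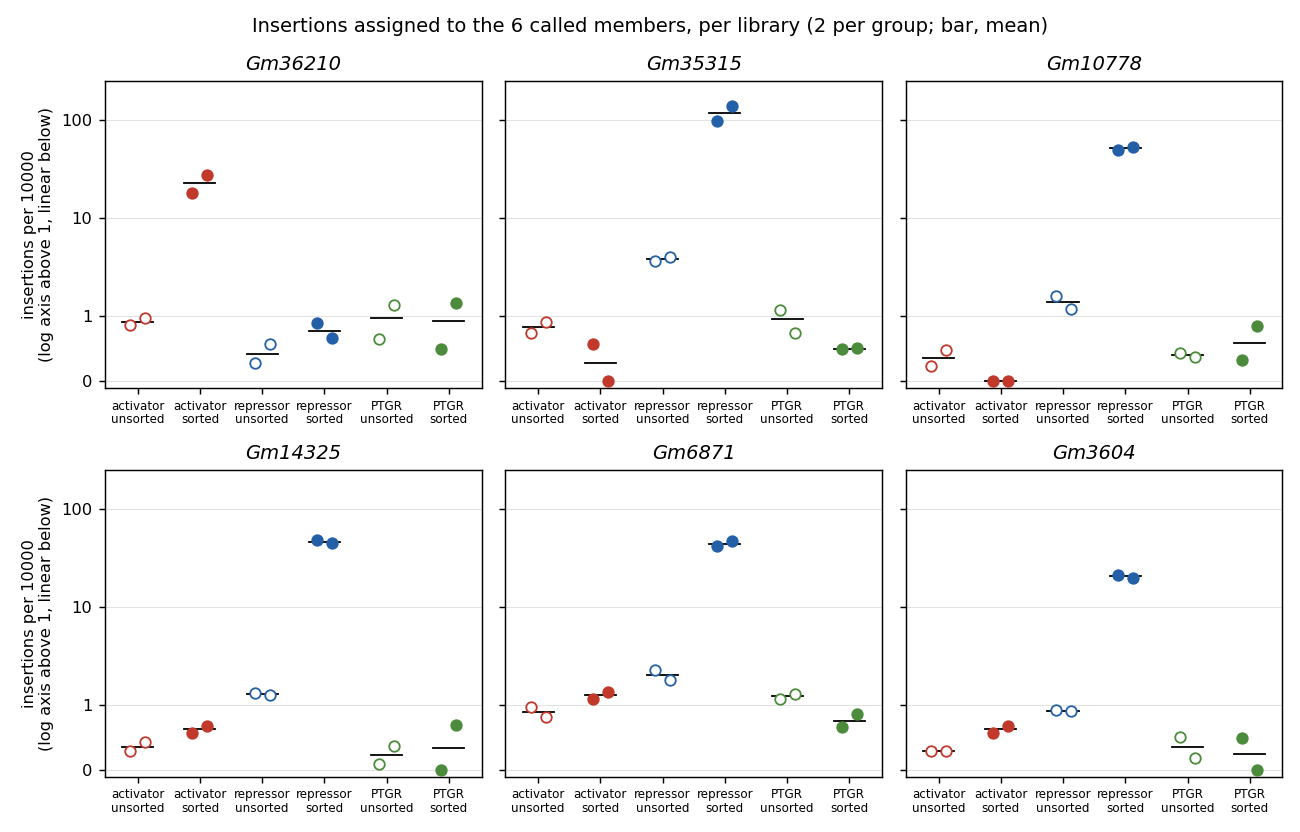
Insertions per 10000 (y axis, log scale above 1 and linear below) of the 6 members called in a screen, in each of the 12 libraries (filled, sorted; open, unsorted; bar, mean of 2). The 5 repressor genes stand at 19.7 to 139 in the repressor sorted libraries and at most 4.01 elsewhere, and Gm36210 stands at 17.8 and 27.2 in the activator sorted libraries.

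Each sorted replicate alone was enough for all 5 to be called, and none depended on the positions that the replicates share. With those positions left out, a choice made after the overlap was seen, the log2 odds ratio of Gm35315 was 5.58 with 136 and 132 sorted insertions. The others had 5.93 with 80 and 50 (Gm10778), 6.14 with 82 and 44 (Gm14325), 5.10 with 78 and 57 (Gm6871) and 5.00 with 34 and 17 (Gm3604), and all were called. By edgeR's quasi-likelihood test within the screen, 2 sorted and 2 unsorted libraries (adjusted p below 0.05), the same 5 members were higher among 45 tested, with log2 fold changes between 5.23 and 5.99 and adjusted p from 2.1e-55 to 5.0e-112, where 7.2% of all 2779 genes tested were called higher.

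The unsorted libraries of the repressor screen held more insertions at these genes than the other unsorted libraries. Gm35315 had 3.67 and 4.01 per 10000 there and between 0.740 and 1.15 in the activator and PTGR unsorted libraries. Over the 5 genes together, 53.6% of the 332 insertions in repressor unsorted libraries lay at positions that were also found in a repressor sorted library, against 14.3% of 105 in the activator and 13.8% of 94 in the PTGR unsorted libraries. Over all genes, between 0.477% and 1.26% of the positions of a repressor unsorted library were found in a given repressor sorted library. The 5 genes were called for their many sorted positions, which raises such shares. Gm14325 had 45 of its 63 background insertions in the repressor unsorted libraries, Gm10778 49 of 75 and Gm3604 32 of 56, so without those libraries these 3 genes would have been under the limit of 50. Their part in the background was not tested. With a background of the activator and PTGR unsorted libraries alone, the same 5 members were called.

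What the 5 share was not used by the rule. A pattern for the C2H2 zinc finger (C, 2 to 4 residues, C, 12 residues, H, 3 to 5 residues, H) was searched in the longest annotated protein of each gene. It matched in 6 members: Gm35315 (16 matches in 571 residues), Gm10778 (14 in 499), Gm14325 (14 in 498), Gm3604 (14 in 559), Gm6871 (11 in 545) and Gm15446 (16 in 553). In the repressor screen 5 of these 6 were called, and none of the 34 members tested that lack the pattern. Of the 5, Gm10778, Gm14325 and Gm3604 are members only through the unsorted libraries of this same screen, as given above, so this split is a description of the list and is not read as a result about it. Over all genes, 85 of 202 tested genes with the pattern were called in the repressor screen (42.1%), against 107 of 2143 without it (4.99%). A gene was tested only with at least 3 sorted insertions, so these shares rest on genes picked by the sorted count. Of all genes, tested or not, 10.8% of 785 with the pattern and 0.547% of 19573 without it were called. In the activator screen 9 of 120 tested genes with the pattern were called and in the PTGR screen 3 of 407, none of them a member.

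The acceptor windows of the 6 genes show where the tag would be joined, and the main windows of 4 of them are close to each other in sequence.
Gm35315, chr5:110080855-110080884, minus strand: acatgtatgggatattttAGgatgcattga
Gm15446, chr5:109940406-109940435, plus strand: acatgtgtggaatattttAGgatgcactga
Gm10778, chr10:81661978-81662007, plus strand: atatgtatgggctattttAGgatgcggtga
Gm3604, chr13:62371927-62371956, minus strand: acgtttacgggatgctctAGaatgcagtga
Gm14325, chr2:177834637-177834666, minus strand: acacttatcaaatcttacAGgatttaatca
Gm6871, main acceptor, chr7:41562229-41562258, minus strand: gacctcactctgtagaccAGtctggcctcg
Gm6871, other acceptor, chr7:41548101-41548130, minus strand: acacatgtatgggattttAGgatgcattga
The windows of Gm35315 and Gm15446 were identical at 27 of 30 bases and those of Gm35315 and Gm10778 at 26 of 30. Over the 15 pairs of main windows of these 6 genes the median was 18 identical bases, and over all 2775 pairs of the 75 member windows compared it was 11. The main window of Gm6871 matched the other 5 at no more than 10 bases. The window of its other acceptor was not among these pairs, and its 10 exon bases are the same as those of Gm35315. This other acceptor of Gm6871 is shown because sorted insertions used it, as follows.

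The sorted insertions of Gm6871 used its acceptors in other proportions than the unsorted insertions did. Of the repressor sorted insertions 68.7% were assigned to the main acceptor, with 25 and 26 at the other, and of the unsorted insertions 87.1%, with 1, 3, 5, 5, 1 and 3 at the other in the 6 libraries. Sorted insertions also lay closer, with medians of 11241 and 12137 bp in the 2 replicates, where the medians of the 6 unsorted libraries ran from 13545 to 28017 bp, and 79.1% of sorted insertions lay inside the gene against 32.4% of unsorted ones. The farthest sorted insertion was 36770 bp away. For the other 4 genes the pooled sorted and unsorted medians were closer to each other, at 4144 and 3719.5 bp in Gm35315, 9082 and 9010 bp in Gm10778, 6993.5 and 7664 bp in Gm14325, and 18101 and 19077 bp in Gm3604. In Gm3604 the sorted insertions lay between 10430 and 59159 bp from the acceptor and 6.49% of them inside the gene. These distances were not tested.

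**Figure D4:**
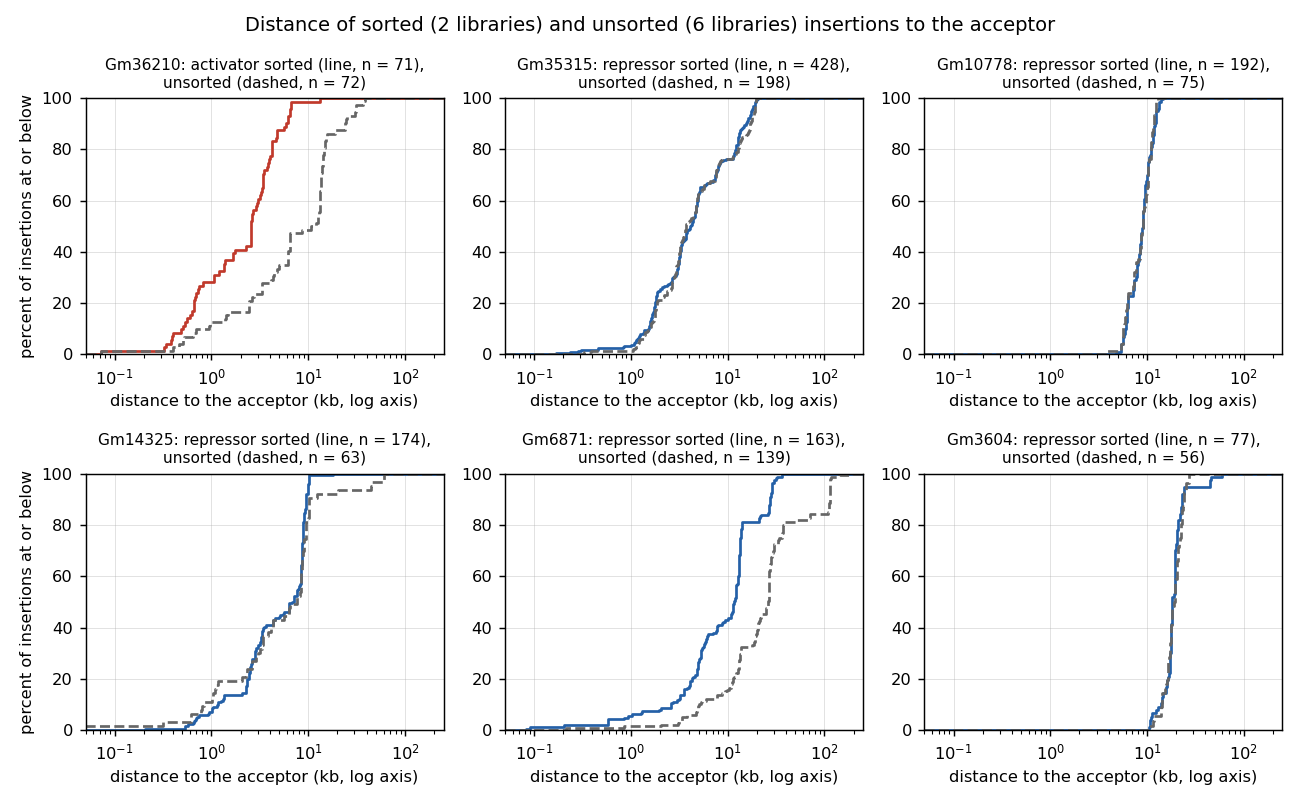
Percent of insertions (y axis) within a distance of the acceptor (x axis, kb, log scale) for the 6 called members, in the 2 sorted libraries of the screen where the gene was called (solid) and in the 6 unsorted libraries (dashed). The curves of Gm36210 and Gm6871 lie apart, with sorted medians of 2581 and 11528 bp against 11365.5 and 26357 bp, and those of the other 4 genes run together.

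In the repressor sorted libraries insertions at the called members were almost all in sense. These members were called for many sense insertions in sorted libraries, so a high sense share there is built into the list. Over the 6 members called in a screen, sense insertions were 99.5% (95% Wilson interval 98.5 to 99.8) and 99.1% (97.8 to 99.7) of the sense and reversed insertions assigned to them in the repressor sorted libraries. Unsorted libraries had shares of 79.9% and 69.6% (repressor), 55.1% and 54.4% (activator) and 55.4% and 46.9% (PTGR). In the reversed lists, the positions behind Gm35315 were assigned to Plcxd1, those behind Gm10778 to Sirt6, those behind Gm6871 to 2610021A01Rik and those behind Gm14325 to Gm14327, and none of these genes was called for its own sense insertions, of which they had 2, 3, 1 and 0 in the sorted libraries.

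Gm15446, the sixth gene with the pattern, was tested and not called. Gm15446 is a long noncoding RNA in RefSeq, where the called members with the pattern are protein-coding. It had 4 and 3 sense insertions in the repressor sorted libraries and 137 in the background, and a log2 odds ratio of 0.48. It lies within 200 kb of Gm35315, and 4 genes called in the repressor screen lie within that distance of it (4930522L14Rik, Zfp932, Gm17655 and Gm35315). Unlike those of Gm35315, its unsorted insertions lay far from the acceptor, with a median distance of 91143 bp and 2.19% inside the gene. A low share inside the gene was not particular to Gm15446, since the called Gm3604 had 1.79%, at a median distance of 19077 bp. Whether the RefSeq class or the distance bears on the call was not tested. Within 200 kb of Gm6871, AI987944, Vmn2r57 and AW146154 were called, and within 200 kb of Gm3604, Zfp808, Gm49359 and Zfp934. No called gene lay that close to Gm10778 or Gm14325. Gene copies in such clusters can be near-identical, and reads that did not map well to 1 place were removed by the authors, so counts at cluster genes can be too low.

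Among the remaining members none was called. The log2 odds ratios of the 35 tested members that were not called ran from -2.20 (Gm11034, 2 and 2 sorted insertions) to 1.62 (Gm42416), and the median of the 40 tested was -0.75, beside -0.39 over all genes tested and -0.58 over the 1985 other tested genes with at least 50 background insertions. Gm42416 had 0 and 9 sorted insertions, so its value came from replicate 2, in which it passed alone, and its adjusted p over both was 0.041. No insertion was found in the repressor sorted libraries for 16 members. By edgeR's quasi-likelihood test Gm33543, which RefSeq lists as a long noncoding RNA, was lower in the repressor sorted libraries, with 0 and 1 insertions against 67 and 79 in the unsorted libraries (log2 fold change -3.11, adjusted p = 0.032, with a median of -0.37 over all genes tested), where 1.15% of all genes tested were called lower. The fold stayed negative but was not called with DESeq2 (-3.62), without the filter on low counts (-3.89), with shared positions left out (-2.96), without sorted replicate 1 (-2.31) and without sorted replicate 2 (-8.66, where the remaining sorted library is at 0 and the size depends on the prior count). With a maximum distance of 50 kb or without either unsorted replicate it did not pass the filter and was not tested. The 72 members that were called in no screen, a list fixed by the absence of a call and by high background counts, so that a lower sorted share is built into it, took 0.539% and 0.552% of the insertions in the repressor sorted libraries and between 1.18% and 1.22% in the 6 unsorted libraries.

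In the activator screen Gm36210 (ENSMUSG00000110221, chr7:4898450-4906516, minus strand), a predicted protein of 229 residues without the C2H2 pattern, had more insertions in GFP-positive cells. It was the only member called among 35 tested, beside 4.64% of 2842 genes tested. It had 31 and 40 sorted insertions, 17.8 and 27.2 per 10000, and its 6 unsorted rates lay between 0.287 and 1.29, so the groups did not overlap. The log2 odds ratio was 4.98 ± 0.24 (adjusted p = 1.1e-65), and it was 4.66 and 5.27 in the replicates alone. By edgeR's quasi-likelihood test its log2 fold change was 4.95 (adjusted p = 1.0e-43), the only call among 45 members tested, where 4% of all genes tested were called higher and 0.0667% lower. It had 2 and 1 insertions in the repressor and 3 and 8 in the PTGR sorted libraries.
Gm36210, chr7:4899487-4899516, minus strand: ctcctcccctccctctccAGggagtttgcc
All 18 bases before the AG of this acceptor are C or T. Sorted insertions lay at a median of 3139 and 2580 bp from it, where the medians of the unsorted libraries ran from 5965 to 13403 bp. Within the gene lay 98.6% of sorted and 47.2% of unsorted insertions, and within 5 kb of the acceptor 62 of 71 sorted and 25 of 72 unsorted insertions. In the reversed lists all 71 sorted insertions were assigned to Zfp628, a zinc-finger gene, which had 5 sense insertions of its own in the sorted libraries and was not called for them. Only 1 position was found in both activator sorted replicates, and without it the log2 odds ratio was 4.97.

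No other member was called in the activator screen. Gm3839, listed as a pseudogene by RefSeq, reached a log2 odds ratio of 1.93 with 4 and 2 sorted insertions (adjusted p = 0.12). Among the 8 members with at least 10 sorted insertions, Gm17606 (0.33) and Gm14226 (0.15) followed Gm36210, and Gm10203 (-0.49), Gm867 (-0.24) and Gm11034 (-0.17) were lowest, with standard errors between 0.39 and 0.47. The median log2 odds ratio of the tested members was -0.27, beside -0.14 over all genes tested. It was -0.26 over the 2524 other tested genes with at least 50 background insertions, close to that of the members. No insertion was found in the sorted libraries for 8 members.

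In the PTGR screen no member was called by Fisher's test among 77 tested, beside 0.666% of 9303 genes tested, and 1 member, Gm973, had an unadjusted p below 0.05 (15 and 23 sorted insertions against 208 in the background, log2 odds ratio 0.64, adjusted p = 0.23). edgeR's quasi-likelihood test called 0 of 27 members, with 0 at an unadjusted p below 0.05, and DESeq2 called 0, where edgeR called 2.24% of 1696 genes higher and 0.236% lower. Of the 48 members with at least 10 sorted insertions, Gm21411 (0.75 ± 0.48), Gm26897 (0.71 ± 0.44) and Gm49804 (0.68 ± 0.45) had the highest log2 odds ratios, and Gm9918 (-1.17 ± 0.43), Gm525 (-1.07 ± 0.47) and Gm45521 (-0.97 ± 0.47) the lowest. The members called in the repressor screen were not called here and had log2 odds ratios between -1.95 ± 0.60 (Gm35315, 3 and 3 insertions) and -0.33 ± 0.57 (Gm10778, 2 and 5). These values rest on the background that holds the repressor unsorted libraries. Against the PTGR unsorted libraries alone the sign turned for Gm14325 (1.27) and Gm10778 (0.49), and the values were -1.10 for Gm35315, -0.65 for Gm6871 and -0.85 for Gm3604, with none called.

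**Figure D5:**
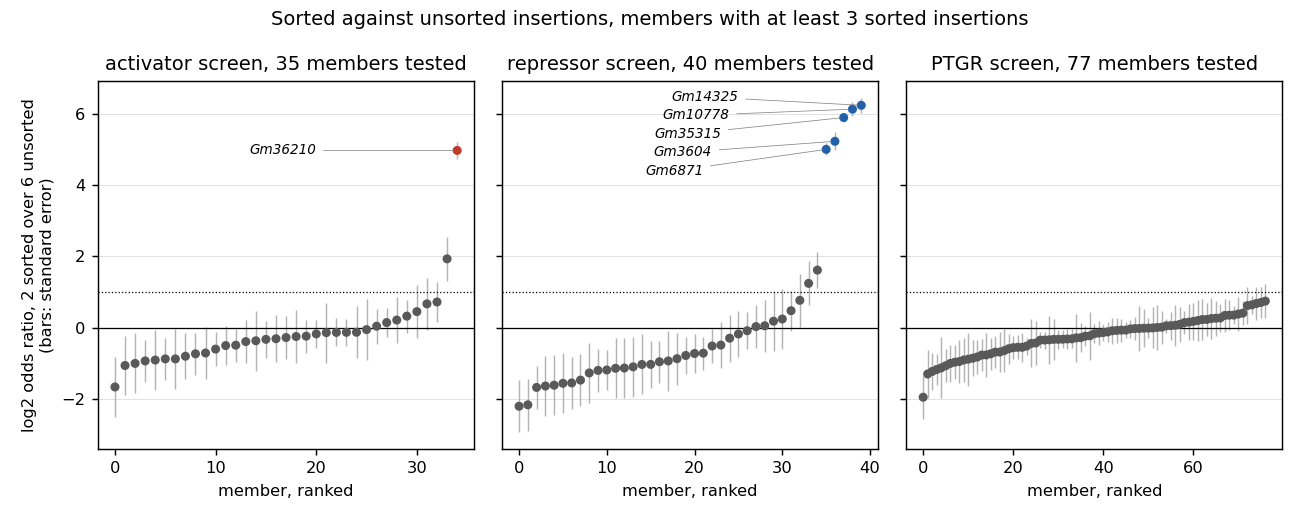
Log2 odds ratio of sorted over unsorted insertions (y axis, bars are standard errors from counting) of the members with at least 3 sorted insertions, ranked in each screen (x axis). The dotted line is the minimum of 1 for a call, and the 5 repressor genes and Gm36210 lie at 4.98 and above while all other members lie below 2 and without a call.

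The difference between screens was tested for each gene in an edgeR fit of all 12 libraries, which was added after the data were seen. The 5 repressor genes differed from the activator screen and from the PTGR screen in their change, and Gm36210 differed in the activator screen from both others. These were 6 members called of 45 tested for repressor against activator (8.21% of all genes called), 5 for repressor against PTGR (6.46%) and 1 for activator against PTGR (3.93%), with every adjusted p at or below 0.0163. Gm10778, Gm14325, Gm3604 and Gm36210 passed the filter on low counts only through the sorted libraries where they are high. In the within-screen edgeR fits Gm35315, Gm10778, Gm14325 and Gm3604 did not pass it for activators or PTGRs, and Gm36210 not for repressors or PTGRs. Gm6871 did not pass it for PTGRs. The contrasts are therefore a description and no separate support for the calls above.

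The members together took a larger share of insertions in the repressor sorted libraries than in any other library, and the 6 called genes held 2.58 and 3.05 percentage points of it. The share was 3.12% (95% Wilson interval 2.90 to 3.35) and 3.60% (3.31 to 3.91) there, between 1.24% and 1.30% in the 4 unsorted libraries of the activator and repressor screens, and 1.23% and 1.26% in those of the PTGR screen. In the activator sorted libraries it was 1.13% (0.980 to 1.29) and 1.01% (0.864 to 1.19), and in the PTGR sorted libraries 1.03% (0.956 to 1.12) and 1.11% (1.03 to 1.20). The intervals cover counting error only, and with 2 libraries a group the shares were not tested.

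Some members were enriched in the lists in which every insertion was turned to the opposite strand, a control for effects that do not pass through the sense transcript of the gene. In the repressor screen 4 of 30 members tested were called there, beside 5.61% of 2229 genes tested. Gm20547 had 44 and 40 reversed insertions in the sorted libraries against 251 in the background (log2 odds ratio 3.45 ± 0.18, adjusted p = 5.7e-50), and 1 and 1 in sense. In the sense list 77 of those 84 insertions, which lay at 71 distinct positions, were assigned to Ehmt2, a histone methyltransferase gene on the opposite strand. Ehmt2 was called itself with 77 sorted and 46 background insertions. Gm867 had 38 and 12 reversed insertions against 403 (2.02 ± 0.22), and 49 of the 50 insertions, at 47 distinct positions, were assigned in sense to the zinc-finger gene Zfp280b, which was called. Gm15446 had 16 and 5 reversed insertions against 130 (2.40 ± 0.34), all 21 of them assigned in sense to 4930522L14Rik, which was called. Gm867 and Gm15446 did not pass in replicate 2 alone.

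Gm5114 was different. It had 22 and 12 reversed insertions in the repressor sorted libraries against 96 in the background (3.53 ± 0.29, adjusted p = 5.2e-21) and 0 and 2 in sense. Of the 34 insertions 28 had no gene within 200 kb in sense, and 6 were assigned to Zfp619, which was not called. They lay at 31 distinct positions over 123056 bp, a median of 140487 bp from the acceptor of Gm5114, where the reversed insertions of the unsorted libraries had a median of 140648 bp. In the PTGR screen Gm11627 was the only member called among 77 tested, beside 0.5% of 9204 genes tested. It had 20 and 15 reversed insertions against 66 (2.19 ± 0.30, adjusted p = 1.8e-08) and did not pass in replicate 2 alone, and 34 of the 35 positions were assigned in sense to Meioc, a germ-cell gene of meiosis, which was called with 35 sorted and 117 background insertions. In the activator screen 0 of 42 members tested were called for reversed insertions by Fisher's test, 3 had an unadjusted p below 0.05, and 3.14% of 2706 genes tested were called.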

How the data were processed

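Insertion sites had been mapped by inverse PCR and sequencing in 12 libraries. Per the methods and labels, the authors trimmed reads with Trim Galore 0.6.0, used Bowtie2 to align first mates to mm10, filtered out poorly mapped and duplicate reads with SAMtools 1.9, and gave every insertion to the nearest exon downstream of it in protein-coding GENCODE transcripts, first exons not counted. The authors deposited 24 lists of positions with the distance to that exon, in sense and with strands reversed, and tables of counts per gene pooled over libraries, together with their own odds ratios and p-values, which were not used. Members were chosen from the pooled background counts; the counts made here from the lists equalled them in 75 of 78 members and differed by at most 1 elsewhere.

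Each position was counted once per library, since each line was repeated in the repressor unsorted lists (50.0% repeats) and 12.8% were repeats in PTGR sorted replicate 2, and counted for a gene up to 200 kb away. Tests were fitted over all genes: a one-sided Fisher's exact test of 2 sorted against 6 unsorted libraries, and the edgeR 4.0.16 quasi-likelihood test with TMM and filterByExpr within a screen (DESeq2 1.42.0 as alternative; R 4.3.3), both tried on simulated counts. A two-sided exact permutation test of 2 against 2 libraries cannot go below p = 0.333. Per the paper the replicates are biological and the libraries come from 6 separate transductions, with a transduction rate given for each replicate of a screen, although the repressor sorted replicates share many positions. Locations are from GENCODE vM21, since the authors' release was not used here, and no reference protein table was used, so no residues are shown. Named members are those called in any test, the 12 with the most background insertions, the 3 highest and 3 lowest log2 odds ratios per screen among members with at least 10 sorted insertions, and those at the limit; other genes were named after their values were seen. The members and lists were chosen with earlier results of these data known.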

Additional observations from a re-analysis of the deposited data

Results flagged for a closer look

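The change from unsorted to sorted libraries differed between screens for 6 members, by an edgeR contrast over all 12 libraries with Benjamini-Hochberg adjustment. Each value is a difference of 2 log2 fold changes. Gm10778, Gm14325, Gm3604 and Gm36210 entered this fit only through the sorted libraries where they are high, so their values are a description. For repressor minus activator it was 6.79 for Gm35315 (adjusted p = 1.3e-09), 4.42 for Gm6871 (9.1e-08), 4.90 for Gm14325 (3.6e-05) and 3.88 for Gm3604 (0.0096), and it was 10.93 for Gm10778 (5.9e-07), whose activator sorted libraries are both at 0, so that its size depends on the prior count of the fit and is no bound. For repressor minus PTGR it was 6.70 for Gm35315 (3.2e-14), 5.82 for Gm6871 (3.8e-14), 5.46 for Gm10778 (7.0e-08), 6.02 for Gm3604 (6.0e-07) and 4.73 for Gm14325 (0.0082). For Gm36210 it was 4.65 for activator minus PTGR (5.8e-07) and -3.25 for repressor minus activator (0.016).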

How the results depend on the processing

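The 6 sense calls by Fisher's test were made under every alternative run: the background of the same screen or, added after seeing the data, of the other 2 screens, a minimum of 1 or 10 sorted insertions, a maximum distance of 50 kb, every listed line counted, an adjusted p below 0.05, each replicate alone, and positions in both sorted replicates left out. The looser threshold of 0.05 could not remove a call. A minimum of 1 or 10 could hardly do so, since each of the 6 had at least 71 sorted insertions. Gm42416 was added in the repressor screen at an adjusted p below 0.05 and without replicate 1. For reversed insertions, leaving out a replicate gave 2 to 4 called members (repressor) and 0 to 1 (PTGR). With a maximum of 50 kb, the share of sorted insertions held by the members was 0.824% for the activator screen (1.07% with 200 kb), 3.99% for the repressor screen (3.31%) and 0.726% for the PTGR screen (1.07%). In edgeR, library totals in place of TMM gave 24 changed members in the repressor screen in place of 6, of which 19 were lower, and moved the median of all genes from -0.37 to -1.52 on the log2 scale. Without either unsorted repressor replicate, 399 or 401 genes passed the filter, in place of 2779, and Gm11034 and Gm49450 were called lower. With the replicate number as a block, edgeR called 1, 6 and 0 members in the activator, repressor and PTGR screens, as without it. The correlation of replicate differences between sorted and unsorted libraries was 0.0455, -0.0305 and 0.294, and the labels do not say that a number marks a pair, so the fit without the block was kept. Positions shared between libraries do tie sorted and unsorted libraries of the same number in the activator and PTGR screens, and not in the repressor screen. Leaving out positions assigned to several genes gave no value of its own, since there were none. No member named by the rule changed its side of the threshold of the sense Fisher test, and no called one its direction, in 165, 170 and 184 alternative values of the 3 screens, and 22, 15 and 33 of them moved by more than a standard error. Low counts limit the members with few sorted insertions, and 8 and 16 had none in the activator and repressor screens.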
